A study of Mus musculus with 34 samples.

Results

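The nuclear genes of oxidative phosphorylation were followed in cumulus cells (CCs), the somatic cells that surround the oocyte, across 34 RNA-seq libraries of mouse. The group was defined by gene symbol alone, with no measured value. It took every Nduf subunit symbol of the a, b, c, s and v series, Sdha to Sdhd, all Uqcr symbols, Cox4 to Cox8 and all Atp5 symbols, and left out pseudogene symbols (1 entry) and genes of the mitochondrial DNA. This gave 85 of the 25965 entries of the count table, of which 37 were assigned to complex I, 4 to complex II, 8 to complex III, 19 to complex IV and 17 to complex V. Not all carry a subunit. Cox4nb (now Emc8) belongs to a membrane protein complex of the endoplasmic reticulum, and Atp5sl (now Dmac2) and Atp5s (now Dmac2l) were named for sequence likeness and are not built into ATP synthase. Ndufa4 is now placed in complex IV, Ndufa4l2 is its paralog, and Cox7a2l joins complexes into supercomplexes.

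Oxidative phosphorylation is run by 5 complexes of the inner mitochondrial membrane. Complex I (NADH dehydrogenase) and complex II (succinate dehydrogenase, also an enzyme of the TCA cycle) pass electrons to ubiquinone, complex III hands them to cytochrome c and complex IV (cytochrome c oxidase) to oxygen. Complexes I, III and IV pump protons, and complex V (ATP synthase) uses the gradient to make ATP. Most subunits are nuclear-encoded and imported, a few catalytic ones come from mitochondrial DNA, and complex II is wholly nuclear. The oocyte draws on CCs for pyruvate and other substrates, since it uses glucose poorly itself.

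All mice were C57BL/6J females that entered the protocols at 8 weeks of age. In the diet-induced obesity (DIO) model they were fed chow diet (CD, 11% of energy from fat) or high-fat diet (HFD, 58%) for 4 or 16 weeks, giving 4-week CD (5 libraries), 4-week HFD (5), 16-week CD (6) and 16-week HFD (7). A further 3 mice, labelled low weight gainers, were also fed HFD for 16 weeks; how much less they had gained is not given in the sources used here. The pharmacologically hyperleptinemic mice of 16 L (5 libraries) received 100 µg of leptin per day by injection over 16 days, and their controls, 16 C (3), received saline. CCs were taken after superovulation, so every group, the controls included, had received gonadotropins. Each library carries 1 mouse number in the labels. A level in such a pool of cells can reflect the number of cells, the RNA per cell or the mixture of cells, which cannot be told apart. Replicate numbers below are the mouse numbers of the labels.

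Libraries held 1104611 to 13207018 counts. The 12 markers of cumulus and granulosa cells summed to 1706 to 39042 in nRPM (RPM, the reads of a gene relative to all gene reads of its library, divided by the TMM factor over all 34 libraries). Gja1, the gap junction gene that couples CCs to the oocyte, was read in every library, at 638 to 37691 nRPM, and Inhba at 73.0 to 416. Amh was at 0 in all 3 low weight gainers. The 10 oocyte markers summed to 344 nRPM in 4-week HFD replicate 5, to 8.25 to 9.39 in the other 4-week HFD libraries and to at most 51.9 in all others. A second library stood apart: in 16 L replicate 18 the 8 markers of oviduct epithelium summed to 36249 nRPM and the red blood cell markers to 11251, against 132 to 1883 and 3.10 to 1941 in the other 16 L libraries and 200.2 to 227 and 1.54 to 30.2 in 16 C. Calls, medians and leading members, though not every one, of the 16 L comparisons are therefore given with and without it. Of 72 pairs of replicates 0 were identical.

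To show what these genes carry at their start sites, promoter windows (250 bases before to 50 after the start, RefSeq, GRCm38.p6) were read for 69 of the 85 genes, in 75 windows. Nuclear oxidative phosphorylation genes are known as targets of NRF1, of the ETS factor GABP and of YY1. The NRF1 core (CGCATGCG, its own reverse complement) was in 12.0% of the 75 windows and in 1.87% of all 32851 windows of the reference, the ETS core (CCGGAAG) in 21.3% against 8.86%, and the YY1 core (AAGATGG) in 17.3% against 6.34%. The TATA box (TATAAA) was in 10.7% against 13.6%. Both strands were searched, and an ETS core can overlap a YY1 core by 3 bases. These are matches of letters and not shown binding. One window is printed for each complex that had members lower in the low weight gainers than in 16-week HFD, namely the one with the smallest p whose window holds an NRF1, ETS or YY1 core. Capitals mark those cores.
Ndufs6, chr13:73328433-73328732, minus strand: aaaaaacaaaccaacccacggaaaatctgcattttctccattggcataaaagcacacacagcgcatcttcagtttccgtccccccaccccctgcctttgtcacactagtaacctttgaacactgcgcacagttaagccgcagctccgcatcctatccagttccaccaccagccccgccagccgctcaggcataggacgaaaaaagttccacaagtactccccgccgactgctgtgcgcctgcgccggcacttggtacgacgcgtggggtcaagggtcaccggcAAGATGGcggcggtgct
Uqcrh, chr4:116075021-116075320, minus strand: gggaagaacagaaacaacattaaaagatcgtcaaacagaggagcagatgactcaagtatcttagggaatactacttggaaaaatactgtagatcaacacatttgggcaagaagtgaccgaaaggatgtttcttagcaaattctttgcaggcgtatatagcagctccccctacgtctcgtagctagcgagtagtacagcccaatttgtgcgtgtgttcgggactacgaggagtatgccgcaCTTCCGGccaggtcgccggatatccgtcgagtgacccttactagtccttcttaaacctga
Cox7c, chr13:86046746-86047045, minus strand: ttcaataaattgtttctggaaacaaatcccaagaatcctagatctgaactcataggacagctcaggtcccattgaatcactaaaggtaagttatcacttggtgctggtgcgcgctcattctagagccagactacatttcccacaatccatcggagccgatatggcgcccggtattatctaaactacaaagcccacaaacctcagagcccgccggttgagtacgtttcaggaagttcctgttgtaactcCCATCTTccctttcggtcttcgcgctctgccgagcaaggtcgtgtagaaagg
Atp5j, chr16:84834927-84835226, minus strand: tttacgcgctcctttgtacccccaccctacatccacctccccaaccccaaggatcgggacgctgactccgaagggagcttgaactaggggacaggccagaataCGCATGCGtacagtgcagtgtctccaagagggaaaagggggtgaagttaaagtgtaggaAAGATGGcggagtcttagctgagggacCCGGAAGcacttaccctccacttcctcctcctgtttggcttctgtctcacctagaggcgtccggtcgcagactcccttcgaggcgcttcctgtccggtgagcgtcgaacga
The Ndufs6 and Cox7c windows hold a YY1 core, the latter on the opposite strand, the Uqcrh window an ETS core on the opposite strand, and the Atp5j window all 3. Ndufs6 codes for an accessory subunit of the NADH-oxidising arm of complex I, Uqcrh for the hinge protein beside cytochrome c1, Cox7c for a small membrane subunit of complex IV and Atp5j for coupling factor 6 of the ATP synthase stalk.

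The members took 0.958% to 2.90% of the counts of a library. Complex I, with the most genes, took 0.598 to 0.863% in 16 C, 0.405 to 1.26% in 16 L, 0.362 to 0.479% in 4-week CD and 0.376 to 0.462% in 4-week HFD. In the 16-week groups it took 0.298 to 0.854% in CD, 0.527 to 0.898% in HFD and 0.486 to 0.545% in low weight gainers. The lowest complex I shares were thus in 16-week CD and the 4-week groups. Complex V showed another order. Its share was 0.257 to 0.325% in 16 C and, without overlap, 0.379 to 0.526% in 16 L. In summed nRPM these groups did overlap, at 4020 to 4727 in 16 C and 2918 to 6018 in 16 L. For complex V, 4-week CD libraries ranged over 0.273 to 0.435%, those of 4-week HFD over 0.370 to 0.517% and those of 16-week HFD over 0.245 to 0.357%. Complex II took 0.0335% to 0.151%, complex III 0.102% to 0.306% and complex IV 0.135% to 0.674% over all libraries. 16 L replicate 18 was the highest library for complexes I, III, IV and V, with 2.90% for all members against 1.26 to 1.66% in the other 16 L libraries.

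**Figure D1:**
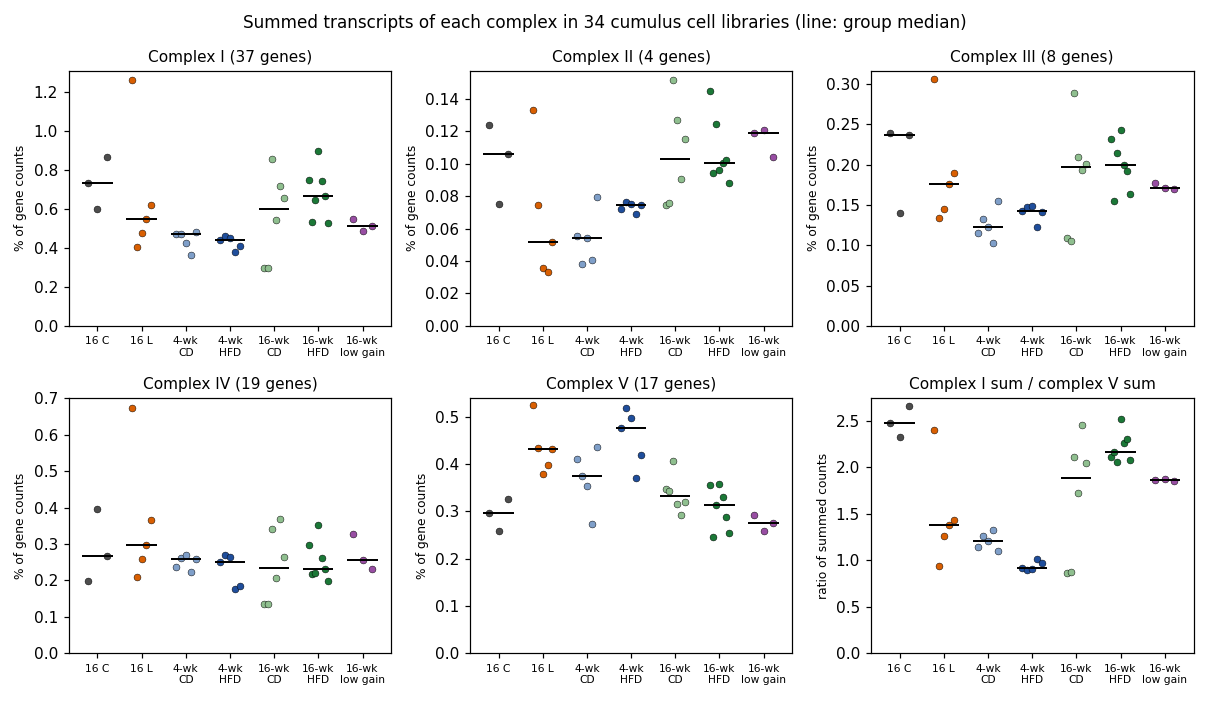
Share of all gene counts taken by the members of each complex, in percent, and the ratio of complex I to complex V counts (last panel), with 1 point per library and a line at the group median. 16-week CD replicates 1 and 2, at ratios of 0.862 and 0.868, lie with the 4-week libraries, while 16 L replicate 18, at 2.40, lies with 16 C.

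The ratio of complex I to complex V counts, which does not depend on scaling between libraries, fell into separate ranges that cut across the groups. It was 2.32 to 2.65 in 16 C, 2.05 to 2.51 in 16-week HFD, 1.85 to 1.87 in low weight gainers and 1.72 to 2.46 in 4 of the 16-week CD libraries. It was 1.10 to 1.33 in 4-week CD, 0.893 to 1.02 in 4-week HFD and 0.933 to 1.43 in 16 L replicates 19 to 23. The same libraries parted in single genes. Sdhb, the iron-sulfur subunit of complex II, stood at 789, 573 and 754 nRPM in 16 C and at 717, 104, 40.1, 49.6 and 56.0 in 16 L, of which the first value is replicate 18. For Sdhb, 16-week CD replicates 1 and 2 held 87.6 and 99.4, and the other 4 held 478 to 703. The 4-week libraries held 32.8 to 138 (CD) and 101 to 136 (HFD), and 16-week HFD 395 to 770.4. Atp5d, the delta subunit of the ATP synthase central stalk, showed the opposite order: 30.8 to 45.3 nRPM in 16 C, 25.7 to 53.9 in 16-week HFD, and 114 to 259.7 and 94.4 to 206 in the 4-week groups. For Atp5d, 16-week CD replicates 1 and 2 held 111 and 117, and the other 4 held 29.5 to 57.5. The labels used here name no processing batch, so the split cannot be told apart from the groups in 16 L versus 16 C, and its cause was not tested. The 2 CD libraries were the most alike of the 72 replicate pairs (chi-square per degree of freedom 3.26), but differed by more than counting noise. Calls, medians and leading members, though not every one, of comparisons with 16-week CD are given with and without them.

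**Figure D2:**
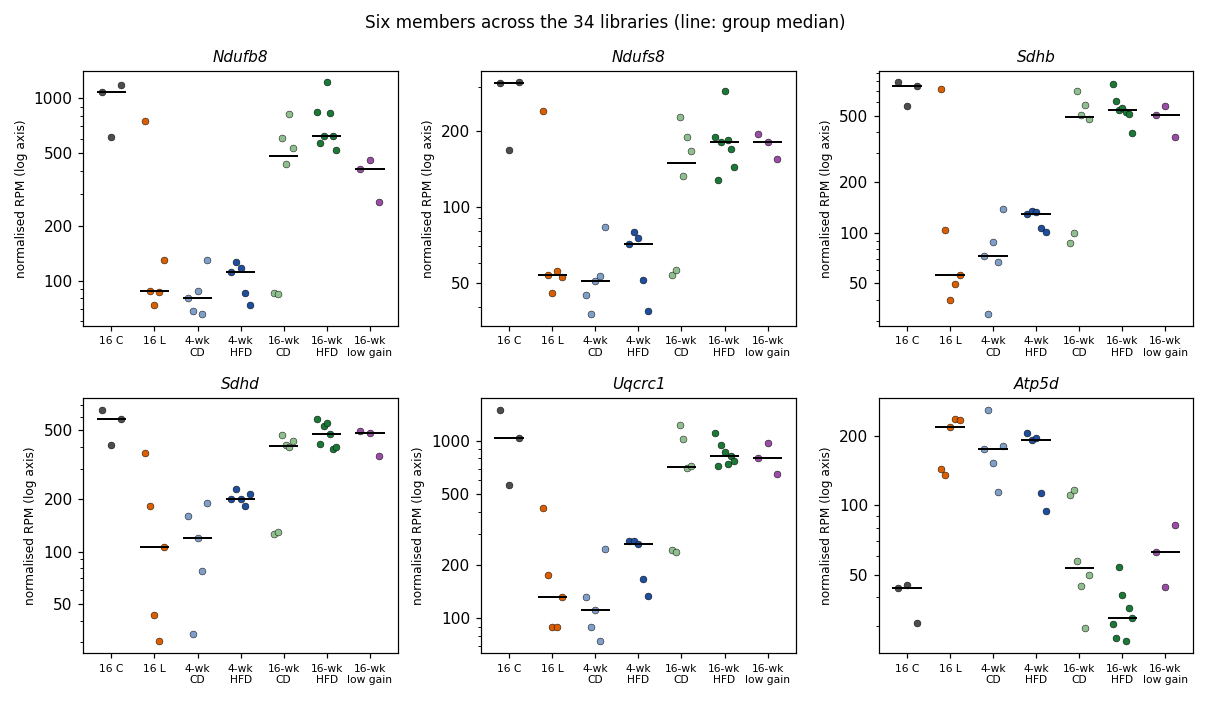
Levels of 6 members in the 34 libraries in nRPM on log axes, with 1 point per library and a line at the group median. In the panels of Ndufb8, Ndufs8, Sdhb, Sdhd and Uqcrc1 the 4-week libraries, 16 L replicates 19 to 23 and 16-week CD replicates 1 and 2 sit low, and in Atp5d they sit high.

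Per kilobase of transcript, averaged over the 34 libraries, the highest member was Cox4i1 (1255 nRPM per kb), the general isoform of subunit 4 that starts complex IV assembly. By nRPM, which is not length-corrected, the highest and lowest members were Ndufb8 (408) and Ndufa4l2 (24.6) in complex I and Uqcrc1 (540.5) and Uqcrc2 (153), the core proteins, in complex III. They were Atp5b (646), the catalytic beta subunit, and Atp5sl (16.3) in complex V. In complex II, Sdhb averaged 349.8 nRPM, Sdhd 313, the flavoprotein Sdha 226 and Sdhc 60.1; Sdhc and Sdhd are the membrane anchors. Sdhc ranged over 38.0 to 169 nRPM, with its highest value in 16 L replicate 18. Sdha did not part the libraries as Sdhb did. For Sdha, 16-week CD replicates 1 and 2 held 284 and 287, and the other 4 held 165 to 387.

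Among the complex IV isoforms, CCs carried the general forms. Cox6a1 averaged 298 nRPM per kb, Cox7a2 372, Cox6b1 671 and Cox8a 194. The heart and muscle forms Cox6a2 and Cox8b had 5 and 3 reads in all 34 libraries together, Cox7b2 had 4, and Cox8c had none, where 0 counts in a library allow up to 3. These 4 genes and Cox6b2, the testis form (246 reads), failed the filter on low counts in every comparison of 2 groups, so 80 of the 85 members were tested there. Cox7a1, the muscle form of subunit 7a, passed at 23.5 nRPM per kb, and Cox4i2, the oxygen-responsive form of subunit 4, at 7.83. Cox7a2l averaged 113. Of the 3 genes for the identical mature c-subunit of the ATP synthase rotor, Atp5g3 was at 306 nRPM per kb, Atp5g2 at 55.1 and Atp5g1 at 25.9. Without the length correction the order of Atp5g1 and Atp5g2 differed between groups. Atp5g1 stood at 99.2 to 140 nRPM in 16 C and 27.0 to 42.4 in 4-week CD, and Atp5g2 at 21.2 to 52.3 and 30.4 to 64.8. Many of these genes have processed pseudogenes, and how reads with several matches were counted is not given in the sources used here.

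Low weight gainers were compared with 16-week HFD mice, which ate the same diet for the same time. Members were lower in the low weight gainers: of 80 tested, 25 fell and 3 rose (edgeR quasi-likelihood test, Benjamini-Hochberg adjusted p under 0.05). Over all 11258 genes tested, 9.93% fell and 10.8% rose. The median log2 fold change of the members was -0.50 against -0.030 for all genes. It was -0.67 in complex I (13 of 37 fell), -0.20 in complex II (0 of 4), -0.58 in complex III (3 of 8), -0.43 in complex IV (3 of 14 fell and 1 rose) and -0.43 in complex V (6 of 17 fell and 2 rose). With scaling by total counts 11 fell and 4 rose (of all genes 19.4% were called), in 1 fit of all 34 libraries none was called (3.68% of all genes), DESeq2 gave 35 lower and 3 higher (25.3%) and limma-voom 35 lower and 4 higher (29.2%).

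**Figure D3:**
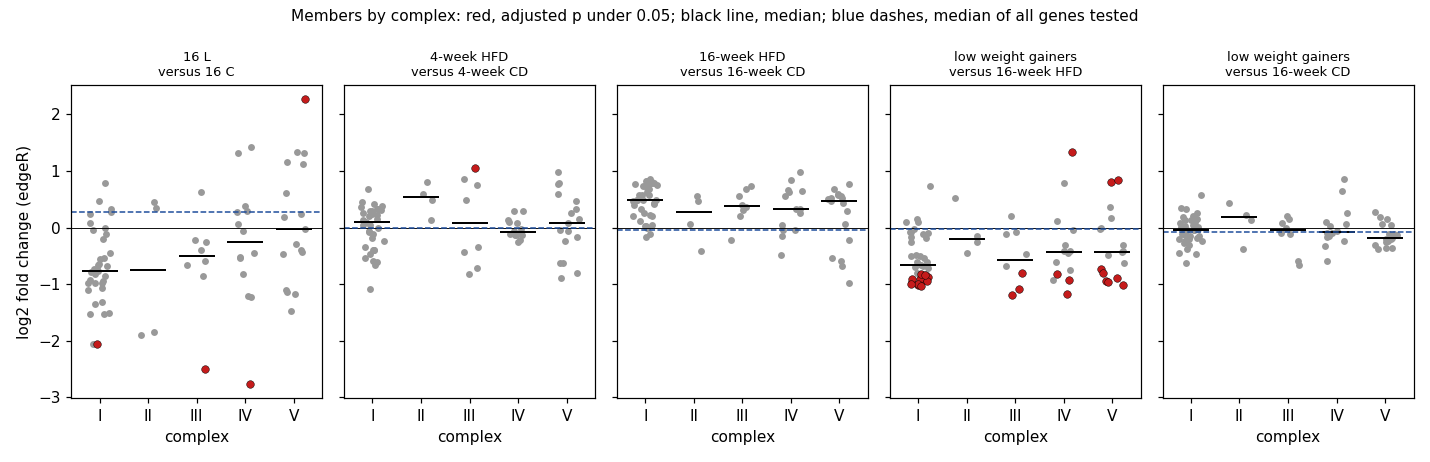
Log2 fold changes (edgeR) of the tested members by complex in the 5 comparisons of 2 groups, with members at adjusted p under 0.05 in red, a black line at each complex's median and blue dashes at the median of all genes tested. In low weight gainers versus 16-week HFD 25 members were lower and 3 higher, where 20.7% of all genes were called. In either comparison with 16-week CD 0 members were called. Of all genes 0.0276% were called there for 16-week HFD and 0.00861% for low weight gainers.

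In complex I, the members that fell were accessory (supernumerary) subunits and Ndufa4. Of 28 accessory subunits 12 fell, all 28 had a fold change below 0, and their median was -0.71. None of the 7 core subunits, which hold the NADH site and the iron-sulfur clusters, was called, and their median was -0.090. Ndufb4, of the proton-pumping membrane arm, stood at 54.2, 48.6 and 64.5 nRPM in the 3 low weight gainers and at 83.0 (lowest), 102 (median) and 170.5 (highest) in 16-week HFD (log2 fold change -1.0, SE 0.24, adjusted p = 0.00846). All 3 lay below every 16-week HFD library. Ndufb2, also of the membrane arm, stood at 94.1, 73.7 and 77.8 against 114 (lowest), 137 (median) and 246 (highest) (log2 fold change -1.02, SE 0.26, adjusted p = 0.012). Ndufs6, whose promoter is printed above, stood at 47.0, 35.9 and 34.1 against 55.3 (lowest), 71.8 (median) and 124 (highest) (log2 fold change -0.96, SE 0.25, adjusted p = 0.0148). The other called accessory subunits were Ndufa1, Ndufa2, Ndufa6, Ndufa7, Ndufb3, Ndufb8, Ndufc1, Ndufs4 and Ndufs5, with log2 fold changes from -1.03 (Ndufb8) to -0.82 (Ndufa6). Ndufa4, counted here by symbol and now assigned to complex IV, fell by 0.91 on the log2 scale (adjusted p = 0.0399). Gm20538 overlaps Ndufb8 on the same strand, so its reads may be shared.

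None of the 4 complex II genes passed the test. The fold changes were 0.52 (SE 0.23, adjusted p = 0.108) for Sdha, -0.25 (SE 0.23, adjusted p = 0.459) for Sdhb, -0.45 (SE 0.24, adjusted p = 0.18) for Sdhc and -0.14 (SE 0.22, adjusted p = 0.671) for Sdhd, all on the log2 scale. In complex III, 3 of the 5 small subunits fell and none of the 2 core proteins and the Rieske iron-sulfur protein did, with medians of -0.81 and -0.074. Uqcrb, which helps form the ubiquinone site, stood at 129.8, 112 and 98.4 nRPM in low weight gainers and 169 (lowest), 228 (median) and 414 (highest) in 16-week HFD (log2 fold change -1.18, SE 0.28, adjusted p = 0.00894). The groups did not overlap. Uqcrh, the hinge protein, stood at 115, 87.9 and 89.8 against 146 (lowest), 161 (median) and 341 (highest) (log2 fold change -1.09, SE 0.28, adjusted p = 0.013). Uqcr10 fell by 0.81 on the log2 scale (adjusted p = 0.0418).

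In complex IV, Cox7c, a small membrane subunit, stood at 80.7, 90.9 and 99.9 nRPM in low weight gainers and 131 (lowest), 165 (median) and 331 (highest) in 16-week HFD (log2 fold change -1.17, SE 0.29, adjusted p = 0.0102). Cox6c and Cox6b1, the latter bridging the dimer, also fell, with log2 fold changes of -0.92 (SE 0.28, adjusted p = 0.0274) and -0.82 (SE 0.25, adjusted p = 0.0276). Cox4i2 rose, while its common counterpart Cox4i1 was at 0.79 (SE 0.32, adjusted p = 0.0879). Cox4i2 stood at 7.91, 8.16 and 17.2 nRPM in low weight gainers, against 2.15 (lowest), 4.59 (median) and 5.39 (highest) (log2 fold change 1.34, SE 0.36, adjusted p = 0.017). Its level is low: it had 849 reads in all 34 libraries together. Cox4i1 was uneven among low weight gainers, at 2035, 1674 and 917 nRPM, and an overlapping entry, Gm20388, lies on its strand. Of the other isoforms, Cox6a1 was at -0.41 (SE 0.25, adjusted p = 0.24), Cox7a1 at -0.92 (SE 0.34, adjusted p = 0.0631), Cox7a2 at -0.75 (SE 0.29, adjusted p = 0.0713), Cox7a2l at -0.31 (SE 0.20, adjusted p = 0.281) and Cox8a at 0.12 (SE 0.22, adjusted p = 0.739). None of these 5 passed the test.

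In complex V, the parts of the enzyme went different ways. Of the F1 head and central stalk, Atp5a1 (the alpha subunit) and Atp5d rose and Atp5e (epsilon) fell. Atp5a1 stood at 503, 493 and 486 nRPM in low weight gainers, above 165 (lowest), 266 (median) and 366 (highest) in 16-week HFD (log2 fold change 0.84, SE 0.22, adjusted p = 0.0136). Atp5d stood at 62.6, 44.4 and 82.0 against 25.7 (lowest), 32.6 (median) and 53.9 (highest) (log2 fold change 0.81, SE 0.24, adjusted p = 0.026), and here the groups overlapped. All 3 supernumerary membrane subunits (Atp5j2, Atp5k and Atp5l) fell, with log2 fold changes of -0.96 to -0.73, as did Atp5h and Atp5j of the peripheral stalk. Atp5j stood at 418, 408 and 349.7 nRPM against 591 (lowest), 673 (median) and 1170.3 (highest) (log2 fold change -1.02, SE 0.27, adjusted p = 0.0143). It overlaps Gabpa on the opposite strand, Atp5d overlaps Dos likewise, and the library kit does not keep the strand, so reads of both cannot be separated. None of the 3 c-subunit genes passed the test, with log2 fold changes of -0.30 (Atp5g1), -0.0020 (Atp5g2) and -0.031 (Atp5g3).

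**Figure D4:**
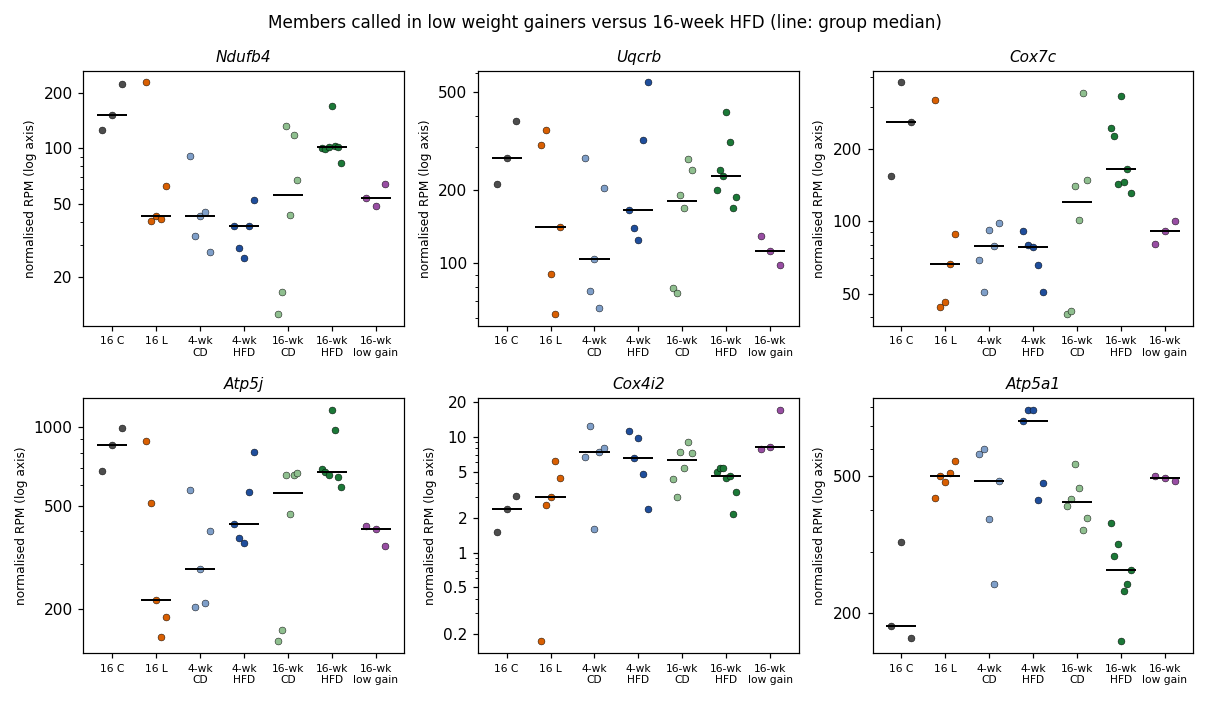
Levels of 4 members that fell (Ndufb4, Uqcrb, Cox7c, Atp5j) and 2 that rose (Cox4i2, Atp5a1) in low weight gainers versus 16-week HFD, in nRPM on log axes, with 1 point per library and a line at the group median. In all 6 panels the 3 low weight gainers lie outside the range of the 7 16-week HFD libraries but inside that of 16-week CD, except Cox4i2, whose highest value (17.2) exceeds it. For Uqcrb, Cox7c and Atp5j they are inside only through 16-week CD replicates 1 and 2, and lie below the other 4 CD libraries.

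Length moved with this result. The 25 members that fell had a median transcript length of 568 bases, the 52 that were not called 921. Of the 52 members under 1 kb, 22 fell (median log2 fold change -0.71), and of the 28 longer ones 3 fell. Among all other genes under 1 kb the median was -0.37 and 13.3% of 1024 fell, against 0.074 and 5.53% between 1 and 2 kb. Cytosolic ribosomal protein genes, also short, fell in 18 of 87 and rose in 2 (median -0.49). Genes under 1 kb took 8.11 to 9.29% of counts in low weight gainers and 8.33 to 12.4% in 16-week HFD. The part of length in the result was not tested. The count also leaned on single libraries. It was 28 with all libraries, 6 without low weight gainer 21 (9.94% of all genes called), 8 without 22 (12.6%), 2 without 23 (5.19%) and 15 without 16-week HFD replicate 14 (16.0%).

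**Figure D5:**
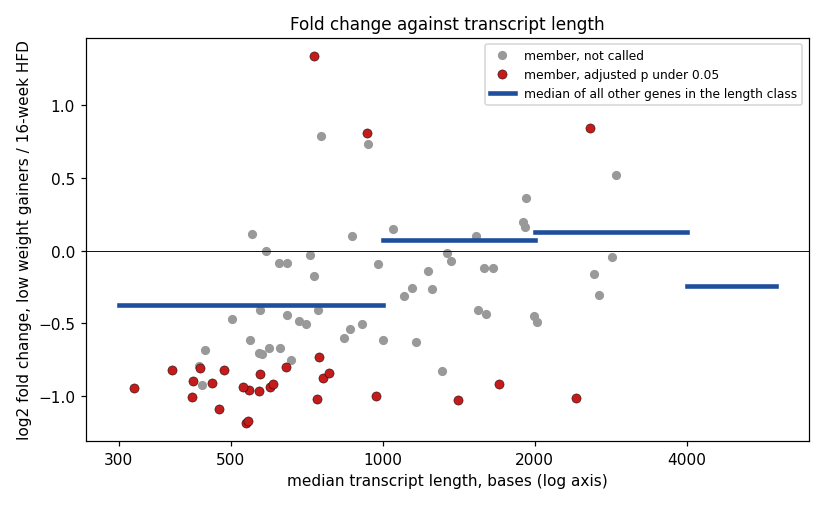
Log2 fold change of each tested member in low weight gainers versus 16-week HFD against its median transcript length in bases (log axis), with members at adjusted p under 0.05 in red and blue bars at the median of all other genes in 4 length classes. Members under 1 kb had a median of -0.71 and other genes of that class -0.37.

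Other genes of the pathway were read in the same comparison. Of 10 tested mitochondrially encoded subunits 7 fell, with a median of -1.57, among them mt-Nd5 (-1.43, SE 0.26, adjusted p = 0.00224) and mt-Cytb (-1.56, SE 0.35, adjusted p = 0.00676). Mitochondrial transcripts took 0.337 to 0.614% of counts in low weight gainers and 0.786 to 1.53% in 16-week HFD. Of 9 further subunits and carriers, Cyc1, the cytochrome c1 of complex III, rose (0.82, SE 0.28, adjusted p = 0.0441), and cytochrome c (Cycs) at -0.99 (SE 0.27, adjusted p = 0.0188) and the small ATP synthase subunits Usmg5 (-1.43, SE 0.30, adjusted p = 0.00451) and 2010107E04Rik (-1.32, SE 0.30, adjusted p = 0.00658) fell. Of 13 TCA cycle genes 3 rose and none fell, among them Cs, citrate synthase (0.72, SE 0.19, adjusted p = 0.0146), and Mdh2 (0.64, SE 0.20, adjusted p = 0.036). Among complex I assembly factors, Ecsit and Foxred1 rose and Ndufaf2, Ndufaf4 and Tmem126b fell, of 10 tested. Of 12 for complex IV, Cox15 rose and Cox16 fell. None of the 2, 3 and 3 tested assembly factors of complexes II, III and V was called, and of 6 factors of supercomplexes and cristae Minos1 fell. Of 11 tested regulators 3 fell: Yy1 (-1.35, SE 0.24, adjusted p = 0.00217), Tfb2m (-0.98, SE 0.26, adjusted p = 0.0164), a mitochondrial transcription factor, and Nrip1 (-1.25, SE 0.30, adjusted p = 0.00884), a corepressor of oxidative genes. In the 24 windows of members that fell, the YY1 core was in 29.2% (17.3% of all 75 member windows, 6.34% of all reference windows). The ETS core was in 29.2% (21.3% and 8.86%), the NRF1 core in 12.5% (12.0% and 1.87%) and the TATA box in 12.5% (10.7% and 13.6%). The part of Yy1 in the result was not tested. Of the 10 tested cumulus and granulosa markers 2 fell and none rose (median -0.76); the summed level was 9798 to 12738 nRPM in low weight gainers and 5507 to 14919 in 16-week HFD. Markers of cumulus expansion fell in 2 of 4, with summed levels of 729 to 881 and 419 to 3101 nRPM, and of 7 macrophage and neutrophil markers 1 rose, with 283 to 358 and 118 to 643. The part of these markers in the result was not tested.

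Against 16-week CD, no member was called in the low weight gainers. None had an unadjusted p under 0.05, while 1299 of all 11620 genes tested did. Over all 11620 genes 0.00861% were called (1 gene), by edgeR. DESeq2 and limma-voom also called 0 members, and 2.11% and 1.69% of all genes. The members' median was -0.091 and that of all genes -0.076. The smallest p of each complex belonged to Ndufa4l2 (0.58, SE 0.36, adjusted p = 0.57), Sdhc (-0.37, SE 0.25, adjusted p = 0.604), Uqcrh (-0.67, SE 0.36, adjusted p = 0.519), Cox4i2 (0.86, SE 0.43, adjusted p = 0.501) and Atp5b (-0.35, SE 0.34, adjusted p = 0.731). The spread of the CD libraries was wide. For Ndufb4, 16-week CD replicates 1 and 2 held 12.6 and 16.6, and the other 4 held 43.8 to 132, a range that holds the 3 low weight gainers. Uqcrb, Cox7c and Atp5j differed from this. There the other 4 held 168 to 267, 101 to 343 and 465 to 667 nRPM, above all 3 low weight gainers. Without CD replicates 1 and 2 (chosen after seeing their levels) the members' median was -0.38 against -0.0022 for all genes, and again 0 were called. Further log2 fold changes in complex II and among the smallest p of each complex were Ndufs4 (-0.63) and Ndufb3 (-0.45) in complex I, Sdhd (0.43), Sdha (0.14) and Sdhb (0.23) in complex II, Uqcrb (-0.60) and Uqcrfs1 (0.15) in complex III, Cox7a2l (-0.33) and Cox4i1 (0.65) in complex IV and Atp5e (-0.38) and Atp5h (-0.30) in complex V. None of these passed the test with all libraries, with adjusted p of 0.6 or more. Without CD replicates 1 and 2 Ndufs4 was at -0.94, Ndufb3 at -0.77, Uqcrh at -0.93 and Uqcrb at -0.93 (edgeR, adjusted p = 0.15). Ndufa4l2 was then at 0.39, Sdhc at -0.41, Cox4i2 at 0.59 and Atp5b at -0.044. The isoforms of complex IV subunits and of the c-subunit that passed the filter lay between -0.33 (Cox7a2l) and 0.86 (Cox4i2).

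Long-term HFD was compared with CD at 16 weeks. No member of 80 was called by edgeR, of 10861 genes tested of which 0.0276% (3) were called in either direction, although 8 members and 2748 genes had an unadjusted p under 0.05. Most members leaned higher in HFD. The median was 0.48 against -0.049 for all genes, 66 of 80 lay above 0, and all 28 complex I accessory subunits did (median 0.56). With scaling by total counts the medians were 0.20 and -0.40. Without CD replicates 1 and 2 they were 0.13 and 0.014, with 0 called. Other genes under 1 kb had a median of 0.29. The comparison of low weight gainers with 16-week HFD shares these HFD libraries, so the values are not independent. For Uqcrb the log2 fold change was 0.56 here (0.25 without CD replicates 1 and 2), and -1.18 there.

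The 2 members with the smallest p at 16 weeks belong to the ATP synthase head and stalk and had values below 0, as had Atp5b. Atp5d was at -0.98 (SE 0.31, adjusted p = 0.0793), Atp5a1 at -0.67 (SE 0.21, adjusted p = 0.081) and Atp5b at -0.54 (SE 0.24, adjusted p = 0.174). Atp5a1 held 348 (lowest), 419.7 (median) and 545 (highest) nRPM in CD and 165 (lowest), 266 (median) and 366 (highest) in HFD, and the groups overlapped. The highest CD values of Atp5d were those of replicates 1 and 2, which held 111 and 117 nRPM against 29.5 to 57.5 in the other CD libraries and 25.7 to 53.9 in HFD. Without them the log2 fold changes were -0.31 (Atp5d), -0.64 (Atp5a1) and -0.20 (Atp5b). In the other complexes the smallest p belonged to Ndufv2, a core subunit of the NADH arm (0.82, SE 0.36, adjusted p = 0.173), Sdhd (0.56, SE 0.31, adjusted p = 0.253), Uqcr11 (0.74, SE 0.40, adjusted p = 0.25) and Cox7a1 (0.99, SE 0.45, adjusted p = 0.178). Without CD replicates 1 and 2, Ndufv2 was at 0.45, Sdhd at 0.21, Sdhb at 0.032 (0.47 with them), Uqcr11 at 0.32 and Cox7a1 at 0.55. DESeq2 called 2 members lower, where it called 9.72% of all genes, and scaling by total counts 3 lower, where 15.2% of all genes were called. Without CD replicate 9 edgeR called 4 higher and 2 lower, and 20.5% of all genes. These shares of members were below those of all genes. No member's groups were without overlap in either direction, and how many of all genes had such groups was not counted. Other log2 fold changes in complex II and among the smallest p of each complex were Ndufa3 (0.85) and Ndufa10 (0.48) in complex I, Sdha (-0.41) and Sdhc (0.063) in complex II, Uqcr10 (0.68) in complex III and Cox6c (0.66) and Cox7b (0.84) in complex IV. None of these passed the test, with adjusted p of 0.176 or more. The isoforms of complex IV subunits and of the c-subunit that passed the filter lay between -0.49 (Cox4i2) and 0.99 (Cox7a1).

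After 4 weeks of HFD, 1 of 80 members was called, and it rose. Of 11727 genes 1.19% rose and 3.06% fell. Uqcrc2, a core protein of complex III, stood at 83.5, 59.0, 99.2, 56.9 and 141 nRPM in CD and 195, 211, 207, 137 and 168 in HFD (log2 fold change 1.05, SE 0.26, adjusted p = 0.0369). The groups overlapped through CD replicate 11, the last of the CD values. Without CD replicate 11 the test called 8 members (5 higher, 3 lower) and 14.4% of all genes, and without any other single library, HFD replicate 5 with its oocyte markers included, it called 0 members. The members' median was 0.080 against -0.0099 for all genes, and with scaling by total counts -0.033 against -0.13.

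The next smallest p-values at 4 weeks went in both directions. Ndufa2, an accessory subunit of the NADH arm that overlaps Tmco6, was at -1.09 (SE 0.32, adjusted p = 0.067), Atp5k, a small membrane subunit of ATP synthase, at -0.89 (SE 0.27, adjusted p = 0.0721), and Atp5b at 0.98 (SE 0.31, adjusted p = 0.0775). Ndufa2 and Atp5k did not overlap between the groups, HFD being lower, and Atp5b did. Complex II lay above 0 in all 4 genes, with 0.81 (SE 0.34, adjusted p = 0.158) for Sdhd, 0.59 (SE 0.29, adjusted p = 0.221) for Sdhb, 0.48 (SE 0.25, adjusted p = 0.241) for Sdha and 0.13 (SE 0.21, adjusted p = 0.742) for Sdhc. The summed share of complex II was 0.0379 to 0.0797% in CD and 0.0688 to 0.0764% in HFD, within the spread of CD. In complex IV the smallest p was that of Cox7b (0.30, SE 0.25, adjusted p = 0.468). Mitochondrial transcripts took 0.828 to 7.72% and 3.57 to 5.25% of counts, and none of 11 tested mitochondrial subunits was called. Outside the members, Etfdh (1.26, SE 0.34, adjusted p = 0.049), which feeds electrons from fatty acid oxidation to ubiquinone, and Idh3a (1.09, SE 0.29, adjusted p = 0.0469) of the TCA cycle rose, and Yy1 fell (-1.69, SE 0.43, adjusted p = 0.0398). Further log2 fold changes in complex II and among the smallest p of each complex were Ndufa3 (-0.61) and Ndufb2 (-0.66) in complex I, Uqcrq (-0.83) and Uqcr11 (-0.71) in complex III, Cox5a (0.29) and Cox6c (-0.26) in complex IV and Atp5c1 (0.78) in complex V. None of these passed the test, with adjusted p of 0.0893 or more. The isoforms of complex IV subunits and of the c-subunit that passed the filter lay between -0.81 (Atp5g3) and 0.15 (Atp5g2).

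Whether the diet effect differed between 16 and 4 weeks was tested as a contrast of 4 groups, with 81 members tested. Atp5b was called, with a log2 difference (16-week effect minus 4-week effect) of -1.43 (SE 0.39, adjusted p = 0.0409). This made 1 lower and 0 higher, where 1.92% of 12235 genes were lower and 1.74% higher. Atp5b, the catalytic subunit, stood at 538, 324, 626, 359 and 957 nRPM in the 4-week controls, at 1205, 1394, 1328, 779 and 845 after 4 weeks of HFD, and at 483 (lowest), 686 (median) and 1009.9 (highest) in 16-week CD and 430.1 (lowest), 499 (median) and 651 (highest) in 16-week HFD. The 16-week CD replicates 1 and 2 held 996 and 1009.9, and the other 4 held 483 to 713. Without replicates 1 and 2 Atp5b was at -1.21 (adjusted p = 0.1) and 1 other member was called. The members' median of the difference was 0.34 against -0.086 for all genes, and without those replicates 0.0028 against -0.025. The next members were Uqcrc2 (-1.22, SE 0.39, adjusted p = 0.0625), Ndufa3 (1.46, SE 0.50, adjusted p = 0.0809), Atp5a1 (-1.08, SE 0.38, adjusted p = 0.0826) and Ndufa2 (1.66, SE 0.58, adjusted p = 0.0845). In complexes II and IV they were Sdha (-0.81, SE 0.35, adjusted p = 0.156) and Cox6c (0.93, SE 0.44, adjusted p = 0.202). Outside the members, Cs of the TCA cycle (-1.23, SE 0.36, adjusted p = 0.0484) was lower and Yy1 (2.22, SE 0.48, adjusted p = 0.021) higher. Without 16-week CD replicate 9 the contrast called 10 members (7 higher, 3 lower) and 13.8% of all genes, and without 4-week CD replicate 11 or 16-week CD replicate 13 it called 2. It called 0 without 16-week CD replicate 1 or 2, without 4-week CD replicate 1, 2, 7 or 8, without 4-week HFD replicate 3, 4 or 5, and without 16-week HFD replicate 10, 12, 14, 15 or 16. Other log2 differences in complex II and among the smallest p of each complex were Ndufb2 (1.40) in complex I, Sdhd (-0.23), Sdhb (-0.12) and Sdhc (-0.017) in complex II, Uqcr11 (1.43) and Uqcr10 (1.10) in complex III, Cox7a1 (1.23) and Cox6b1 (0.55) in complex IV and Atp5e (1.14) in complex V. None of these passed the test, with adjusted p of 0.108 or more. Without 16-week CD replicates 1 and 2 the log2 differences were -1.15 (Atp5a1), 1.19 (Ndufa2), 1.03 (Ndufa3), -0.85 (Sdha) and 0.56 (Cox6c).

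Leptin-treated mice were compared with saline controls. In 16 L, 1 of 80 members rose (Atp5d) and 3 fell (Cox7a1, Ndufv2 and Uqcrc1), while 4.06% of 11723 genes rose and 4.5% fell. Atp5d stood at 43.9, 45.3 and 30.8 nRPM in 16 C and 143, 136, 217, 238 and 235 in 16 L (log2 fold change 2.27, SE 0.38, adjusted p = 0.0148). Every 16 L library lay above every 16 C library. Uqcrc1, a core protein of complex III, stood at 1505, 563 and 1044 against 419.7, 175, 89.8, 89.5 and 133 (log2 fold change -2.50, SE 0.60, adjusted p = 0.0382). Ndufv2 stood at 802, 335 and 769 against 294, 135, 90.6, 109 and 127 (log2 fold change -2.06, SE 0.49, adjusted p = 0.0369). Cox7a1, the muscle form of subunit 7a, stood at 28.8, 25.5 and 47.0 against 9.39, 3.10, 3.05, 4.82 and 4.05 (log2 fold change -2.76, SE 0.48, adjusted p = 0.0172). In all 3 genes every 16 L library was below every 16 C library. Without 16 L replicate 18 the log2 fold changes were 2.27 (Atp5d), -3.16 (Uqcrc1), -2.53 (Ndufv2) and -3.28 (Cox7a1), and all 4 were called. Atp5d and Uqcrc1 are among the genes whose levels parted the libraries as described above. Ndufv2 parted them less sharply, with 195 nRPM in 4-week HFD replicate 14 and 182 in low weight gainer 23. The split in the ratio of complex I to complex V coincides here with the groups except for 16 L replicate 18. For Atp5d that library, at 143 nRPM, lay with the other 16 L libraries.

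The members as a whole lay lower in 16 L relative to other genes, whatever the scaling. Their median was -0.54 against 0.27 for all genes, and with scaling by total counts 0.16 against 1.08, so the sign depended on the scaling, while the distance was -0.81 and -0.92. Without 16 L replicate 18 the median was -1.04 against 0.098. With total counts 11 members rose and 3 fell, where 34.4% of all genes were called. By complex the medians were -0.77 (I), -0.75 (II), -0.49 (III), -0.26 (IV) and -0.023 (V). The calls rested on few libraries. They numbered 0 without any 1 of the 16 C libraries or without 16 L replicate 20 or 23, 1 without 21, 5 without 19 and 49 (5 higher, 44 lower, where 41.8% of all genes were called) without replicate 18, the library with oviduct and red blood cell markers. In that library Ndufb8 was at 752 nRPM against 73.6 to 131 in the other 16 L libraries, and Cox4i1 at 2751 against 424 to 922. Summed levels of cell markers parted the groups too. Cumulus and granulosa markers summed to 14133 to 39042 nRPM in 16 C and 1706 to 9133 in 16 L, cumulus expansion markers to 1225 to 2244 and 12.6 to 670.0, and oocyte markers to 1.51 to 1.93 and 12.2 to 51.9, each without overlap. Such sums weigh the most abundant genes most. Of 10 tested cumulus and granulosa markers 0 were called, with a median log2 fold change of 0.031 and 5 below 0. Of 5 tested expansion markers 0 were called (median -0.22, 4 below 0), and of 2 tested oocyte markers 1 rose. Of all genes 8.56% were called. The part of cell mixture in these values was not tested.

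Further members with small p in 16 L were Ndufa9 (-1.31, SE 0.40, adjusted p = 0.0649) in complex I, Sdhd (-1.89, SE 0.72, adjusted p = 0.111) and Sdhb (-1.84, SE 0.93, adjusted p = 0.198) in complex II, Cox8a (1.43, SE 0.50, adjusted p = 0.0942) in complex IV, and Atp5sl (1.34, SE 0.38, adjusted p = 0.0543) and Atp5a1 (1.13, SE 0.38, adjusted p = 0.081) in complex V. None passed the adjusted threshold with all libraries. Without 16 L replicate 18 Sdhb was at -3.58 (adjusted p = 0.0001), Sdhd at -2.68 (adjusted p = 0.00356) and Ndufa9 at -1.68 (adjusted p = 0.0013). The members above 0 were called there too (edgeR): Atp5sl at 1.27 (adjusted p = 0.0154), Atp5a1 at 1.08 (adjusted p = 0.0195) and Cox8a at 0.84 (adjusted p = 0.0204). Sdhc turned from above to below 0, at -0.12 (adjusted p = 0.691). With all libraries Sdha and Sdhc were at 0.34 (SE 0.39, adjusted p = 0.57) and 0.46 (SE 0.47, adjusted p = 0.521). Cox6b2, under the filter on low counts, had 74 reads in 16 L and 3 in 16 C, a difference of 1.85 in mean log2(RPM + 1) (exact permutation test, two-sided, p = 0.0179, 0.446 after Benjamini-Hochberg adjustment over the 25 such tests, the smallest the 56 splits allow before it), with at most 37 reads in a library. The c-subunit genes went apart, with -0.40 (SE 0.76, adjusted p = 0.741) for Atp5g1, 0.19 (SE 0.43, adjusted p = 0.786) for Atp5g2 and 1.33 (SE 0.49, adjusted p = 0.103) for Atp5g3. Of 9 tested mitochondrial subunits none was called (median 0.74). Of the assembly factors Ndufaf1 (complex I) and Sco1 and Cox11 (complex IV) fell, and of 13 TCA cycle genes none was called. Further log2 fold changes among the smallest p of each complex were Uqcrfs1 (-0.67) and Uqcrh (0.62) in complex III and Cox7a2l (1.32) in complex IV. None of these passed the test with all libraries, with adjusted p of 0.185 or more. Without 16 L replicate 18 Uqcrfs1 was at -0.88 (edgeR, adjusted p = 0.0169), Uqcrh at 0.44 (adjusted p = 0.375) and Cox7a2l at 0.50 (adjusted p = 0.235).

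Leptin treatment and 4-week HFD were set against each other in a contrast of their effects, the question being whether the hyperleptinemic model follows early DIO. It called 5 members higher and 16 lower of 81, where 16.3% of 12947 genes were higher and 10.9% lower. Lower were 9 members of complex I, both Sdhb and Sdhd of complex II, all 3 core and Rieske proteins of complex III, Cox7a1 and Atp5c1. Uqcrc1 differed by -3.34 (SE 0.64, adjusted p = 0.00203) on the log2 scale, beside -2.50 for 16 L and 0.75 for 4-week HFD when each pair was fitted alone. Sdhd differed by -2.81 (SE 0.77, adjusted p = 0.013), beside -1.89 and 0.81. Higher were Atp5d (2.36, SE 0.46, adjusted p = 0.00228), Atp5g3 (2.08, SE 0.67, adjusted p = 0.028), Cox8a (1.47, SE 0.48, adjusted p = 0.0301), Atp5sl (1.28, SE 0.41, adjusted p = 0.0263) and the sparse Cox6b2 (3.62, SE 1.25, adjusted p = 0.0382). Of the 7 core subunits of complex I 4 were lower, among them Ndufs3, Ndufs8 and Ndufv2, and of its 28 accessory subunits 5.

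The members' median difference was -0.62 against 0.28 for all genes. With scaling by total counts it was 0.30 against 1.29, and the calls became 19 higher and 4 lower (45.7% of all genes called). Without 16 L replicate 18 the median was -1.16 against 0.18 and the calls were 5 higher and 42 lower (43.5% of all genes called), with Uqcrc1 at -3.90, Sdhd at -3.48 and Sdhb at -4.16. The calls changed without controls as well: without 16 C replicate 1 they were 1 higher and 8 lower, and without 16 C replicate 3 they were 1 and 7. The 4-week libraries and 16 L replicates 19 to 23 lie on the same side of the split in levels and 16 C on the other, so this contrast carries the limit of the leptin comparison. Ndufa9 (-1.73), an accessory subunit, Uqcrfs1, the Rieske protein (-1.23), and Uqcrc2 (-1.53) were among the members called lower, while Sdha (-0.23) and Sdhc (0.24) were not called.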

How the data were processed

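CC libraries were made with Smart-seq2 (oligo-dT priming) and Nextera XT, which does not mark the strand, and 34 libraries in 7 groups entered, 1 per mouse number in the labels. The authors deposited whole-number read counts per gene for all libraries in 1 table; the submitters' processing notes name Trim Galore 0.4.2, HISAT2 2.0.5 and the genome build GRCm38, while the counter, its strand setting and its treatment of multi-mapping reads are not given in the sources used here. Totals of 1104611 to 13207018 counts set the precision, and a count of 0 allows up to 3; such limits cover counting error only. Where nothing says that libraries came from separate experiments, p-values measure the spread between these libraries.

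From the counts, RPM was divided by TMM factors over all 34 libraries (nRPM). The groups of a comparison were fitted without the others, over all genes, with edgeR 4.0.16 (filterByExpr, TMM, robust quasi-likelihood F-test, two-sided, Benjamini-Hochberg adjusted p under 0.05), in R 4.3.3. Alternatives were RLE and total-count scaling, DESeq2 1.42.0, limma-voom with quality weights (limma 3.58.1), no filter, at least 10 counts in every library, 1 fit of all libraries, leaving out each library and a replicate block. Members under the filter were tested by exact permutation on log2(RPM + 1), with 0.1 as the other pseudocount. Transcript lengths are medians per gene in GENCODE M21 and promoters are RefSeq windows. Scripts were tested on simulated data and run with Python 3.11.15, pandas 2.3.3, numpy 2.4.6 and matplotlib 3.10.9.

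Named in each comparison were, for each complex, the 3 members with the smallest p, every called member where 12 or fewer were called, complex II, the isoform families and the highest and lowest member of each complex. The members and gene lists were chosen with earlier results of these data known. Some genes that this rule names are not reported here.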

Additional observations from a re-analysis of the deposited data

Results flagged for a closer look

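In 30 checks of groups of 5 to 7 libraries, 1 library lay far from the rest of its group in 2, where chance alone marks about 1 in 20 groups. Both concern 16 L replicate 18. Its members took 2.90% of counts against 1.26 to 1.66% in the other 16 L libraries, and its complex I members 1.26% against 0.405 to 0.620%. The same library held 36249 nRPM of oviduct epithelium markers and 11251 nRPM of red blood cell markers, and their part in these values was not tested.

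The diet effect differed between 16 and 4 weeks for Atp5b, by -1.43 on the log2 scale (edgeR, adjusted p = 0.0409), a call that was absent without 16-week CD replicates 1 and 2.

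The leptin effect differed from the 4-week diet effect in 21 members (edgeR contrast of 4 groups, Benjamini-Hochberg adjusted). On the log2 scale, leptin effect minus diet effect, the 16 differences below 0 included Uqcrc1 -3.34, Sdhd -2.81, Cox7a1 -2.63, Sdhb -2.55, Ndufv2 -2.52, Ndufb8 -2.39, Ndufs5 -2.08, Atp5c1 -2.04, Ndufa6 -1.98, Ndufs8 -1.83, Ndufa9 -1.73, Uqcrc2 -1.53, Uqcrfs1 -1.23, Ndufs4 -1.22 and Ndufs3 -1.07. Those above 0 were Atp5sl 1.28, Cox8a 1.47, Atp5g3 2.08, Atp5d 2.36 and Cox6b2 3.62. Without 16 L replicate 18 the contrast called 47 members.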

How the results depend on the processing

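The counts of members called moved with tool, scaling and libraries, and so did the share of all genes called, given in parentheses. For 16 L versus 16 C (4 members) they were 14 with total counts (34.4%), 13 with DESeq2 (22.4%), 59 with limma-voom (64.4%) and 21 in 1 fit of all 34 libraries (33.1%). At 4 weeks (1 member) they were 3 (5.65%), 6 (11.0%), 28 (34.5%) and 0 (0.521%) in the same order. At 16 weeks (0 members) total counts gave 3 (15.2%), DESeq2 2 (9.72%) and the fit of all libraries 1 (9.50%). For low weight gainers versus 16-week HFD (28 members) total counts gave 15 (19.4%), the fit of all libraries 0 (3.68%), DESeq2 38 (25.3%) and limma-voom 39 (29.2%). For the 16-week minus 4-week diet effect (1 member), RLE gave 2 (4.94%), total counts 5 (7.14%), DESeq2 5 (9.52%), limma-voom 18 (19.2%), no filter 0 (1.55%), a minimum of 10 counts in every library 2 (6.08%) and all libraries 0 (1.19%). For leptin minus 4-week diet (21 members), limma-voom gave 61 (61.1%) and the minimum of 10 counts 11 (27.4%). Low weight gainers versus 16-week CD stayed at 0 in every fit, with at most 2.11% of all genes called (DESeq2). The cause of these moves was not tested. Leaving out 1 library at a time gave 0 to 49 calls (16 L versus 16 C), 0 to 8 (4 weeks), 0 to 6 (16 weeks), 2 to 36 (low weight gainers versus 16-week HFD), 0 to 10 (16-week minus 4-week diet effect) and 8 to 47 (leptin minus diet); where 2 libraries of a group remained, the spread was pooled over groups. Called members kept their direction in all refits, losing the call in 23 of 59 (leptin), 10 of 17 (4 weeks), 127 of 475 (low weight gainers), 18 of 32 and 124 of 521 (the 2 contrasts).

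Summed levels by TMM in place of total counts moved by more than the spread between libraries in 16 L versus 16 C, to a log2 difference of -0.78 for all members (from 0.012), -1.04 for complex I, -1.60 for II, -0.92 for III, -0.52 for IV and -0.23 for V (from 0.56). They also did for complex V in 16-week HFD versus CD, to 0.18 (from -0.15), and in low weight gainers versus 16-week CD, to -0.091 (from -0.28).

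With the mouse number as a replicate block, the 16-week minus 4-week diet contrast called 0 members. The 7 numbers that recur gave correlations of deviations from -0.292 to 0.197, 3 of them over 0.1. These deviations also carry the split in levels between libraries. They therefore cannot tell whether the libraries share more than a number. No paired analysis was possible because the groups share no mouse number in the 5 comparisons of 2 groups, and no 16 L number recurs in the leptin contrast. Depth of at most 13207018 counts limits the sparse isoforms.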
